A study of Homo sapiens with 8 samples.

Results

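The untreated state of SH-SY5Y, an established human neuroblastoma cell line, was described from the 2 control arrays of a series of 8 on maleic acid, in which the other arrays held cells exposed for 24 h to 10, 50 or 100 μM. Both control arrays carried Cy5-labelled RNA of 1 sample of untreated cells, at 0 μM, grown in medium with 10% fetal bovine serum. They were technical replicates, so their spread holds no difference between cultures, which were not replicated, and no test between samples was possible. Whether each array had its own labelling is not stated. The members were the probes with 1 gene symbol, 24658 of the 31741 probes of the Human Whole Genome OneArray, and they stood for 18255 genes. Values are log2 intensities of array 1 and array 2 after quantile normalization of both. Probes bind their targets with unequal strength, so an intensity does not rank transcripts, and each level is read against a limit of detection. A value given without its probe is that of the brightest probe of the gene. The line is an established culture and not tumor tissue, and its cultures are known to hold neuroblast-like and substrate-adherent cells, which these arrays measured as a mixture.

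Neuroblastoma arises from the sympathetic branch of the neural crest. Its noradrenergic cells make dopamine and noradrenaline from tyrosine, store them in vesicles and take them back up from outside. A small set of transcription factors, among them PHOX2A, HAND2, GATA2, GATA3, ISL1 and TFAP2B, holds this identity, while cells of the mesenchymal state resemble neural crest or Schwann precursors.

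The limit of detection was taken from 5 families of genes with known roles outside such cells, namely olfactory receptors, bitter taste receptors, keratin-associated proteins, beta-defensins and late cornified envelope proteins. Their 420 probes had a median log2 intensity of 6.23, as the mean of the medians of both arrays, and the limit was their 95th percentile, 11.59 on array 1 and 11.27 on array 2. A probe above it on both arrays is called above background, and a gene when any of its probes is. Of all probes with 1 symbol, 30.1% were above background, and of all genes 34.8%, that is 6349 genes. A further 8282 genes were not above background but had their brightest probe over the median of these families, and 3624 genes lay below that median. Genes with more probes had more chances, and 49.1% of those with 3 or more probes were above background, 44.4% of those with 2 and 30.4% of those with 1. The 19 probes of the 5 families that were above the limit were 18 of olfactory receptors and 1 of a beta-defensin, and without the olfactory receptors the limit was lower and 9432 genes, 51.7%, were above it. At the 99th percentile of all 5 families 2087 genes were above it. The call thus depends on the limit, and whether the olfactory receptor signal is background was not tested.

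**Figure D1:**
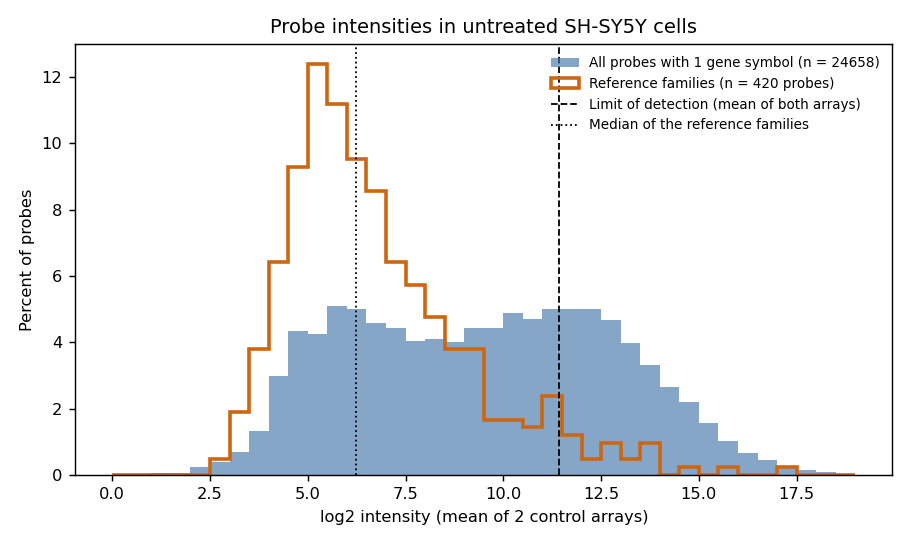
Histogram of log2 intensities (horizontal axis, mean of 2 control arrays) as percent of probes (vertical axis), for the 24658 probes with 1 gene symbol (filled) and the 420 probes of the reference families (line). The reference families gather around their median of 6.23 (dotted), with a tail past the limit (dashed), whereas the probes with 1 symbol spread over both sides of it.

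Genes of the ribosome were the most frequent of the lists among the brightest probes. GNAS, the alpha subunit of the stimulatory G protein, had 18.77 and 18.77 on array 1 and array 2. RPS23, a protein of the small ribosomal subunit, had 18.66 and 18.57. TPT1, a translationally controlled growth protein, had 18.61 and 18.55, and the glycolytic enzyme ENO1 had 18.51 and 18.56. Of the 100 genes with the brightest probes, 31 coded for cytosolic ribosomal proteins and 5 for subunits of the respiratory chain. The other members of the first 20 genes were RPS27, H4C3, RPL13, RPLP1, RPS25, RPS21, RPL38, HSP90AB1, RPS28, EEF2, UBB, PTMA, RPL35A, RPL11, TUBA1A and EEF1G, all between 18.07 and 18.69 on each array. Neuronal and neuroendocrine genes stood among the 100 brightest as well. They were TUBA1A, STMN2, TUBB2B and DPYSL2 of the cytoskeleton and growth cone and CHGA of the dense core granules. The 100 brightest probes gave 14.6% and 14.8% of the summed deposited intensity of all probes with 1 symbol on array 1 and array 2, and the 1000 brightest gave 50.2% and 50.4%.

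The 4 markers of noradrenergic neuroblastoma cells were DBH, TH, GATA3 and HAND2, and 3 of them were above background on both arrays. DBH, the enzyme that turns dopamine into noradrenaline, had 16.64 and 16.57. GATA3, a zinc finger transcription factor of the sympathetic lineage, had 15.66 and 15.76 on its brighter probe and 14.86 and 14.91 on the other. HAND2, a basic helix-loop-helix factor of the same lineage, had 15.66 and 16.13. TH, the rate-limiting enzyme of catecholamine synthesis, had 12.15 and 11.13 on its only probe, above the limit on array 1 and below it on array 2. TH was above background on both arrays at the 90th percentile of the reference families and without olfactory receptors. The levels of DBH, GATA3 and HAND2 fit the label of the cells, while the call of TH rested on which limit and which array was used.

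The start regions of DBH and HAND2 are shown for these markers, since homeodomain factors such as PHOX2A act through sites with an ATTA core and such sites are known in the DBH promoter. Capitals mark each ATTA on either strand in the 200 bases before the start, read on the gene's strand (RefSeq, GRCh38.p14). The DBH stretch is chr9:133636163-133636362 on the plus strand and the HAND2 stretch chr4:173530230-173530429 on the minus strand.
DBH: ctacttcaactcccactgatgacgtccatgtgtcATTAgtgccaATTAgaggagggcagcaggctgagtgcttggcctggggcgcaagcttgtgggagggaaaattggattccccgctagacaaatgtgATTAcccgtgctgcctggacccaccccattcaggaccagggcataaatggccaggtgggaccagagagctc
HAND2: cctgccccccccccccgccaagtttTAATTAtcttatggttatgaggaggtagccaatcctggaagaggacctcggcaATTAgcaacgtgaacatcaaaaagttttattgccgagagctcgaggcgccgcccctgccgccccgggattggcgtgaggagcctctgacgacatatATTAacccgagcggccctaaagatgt
The DBH stretch held 3 matches and the HAND2 stretch 4, of which 2 overlap. Such a short core is common, and 50.2% of the 35116 promoters of the RefSeq table, each with 300 bases, held it on either strand.

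Of 15 measured genes of catecholamine synthesis and handling, 10 were above background, against 34.8% of all genes. DDC, which turns L-DOPA into dopamine, had 15.91 and 15.92 on its brighter probe, and the other probe of the gene had 7.37 and 7.31, under the limit. CYB561, which supplies electrons for the DBH reaction inside the vesicle, had 15.22 and 15.23. The enzymes of the cofactor tetrahydrobiopterin were above background for GCH1 with 12.64 and 12.73, PTS with 14.63 and 14.79, QDPR with 12.40 and 12.37 and PCBD1 with 12.62 and 12.56. SPR, the last enzyme of that pathway, had 8.14 and 8.11. The noradrenaline transporter SLC6A2 was above background on each of its 3 probes, with 13.49 and 13.61 on the brightest. Of the monoamine oxidases, MAOB had 14.59 and 14.55 and MAOA 12.17 and 12.12. Both vesicular monoamine transporters were under the limit, with 7.32 and 7.62 for SLC18A1 and 5.87 and 6.28 for SLC18A2. PNMT, which makes adrenaline from noradrenaline, had 10.79 and 10.87, also under it.

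Of 20 measured transcription factors of the sympathetic lineage, 16 were above background, 80% against 34.8% of all genes. The other 4 lay over the median of the reference families, in a band that held 45.4% of all genes. At the 99th percentile of these families 9 were above background, and without olfactory receptors 20. Of all genes, 11.4% and 51.7% were above it at these 2 limits. ISL1, a LIM homeodomain factor, had 16.33 and 16.42, and GATA2 had 16.27 and 16.14. TFAP2B had 16.15 and 16.18 on 1 probe and 15.29 and 15.24 on the other. HAND1 had 15.74 and 15.50, SOX11 and TBX2 were above background as well, and PHOX2A had 13.02 and 12.87. MYC had 13.17 and 13.58, whereas MYCN, which is amplified in many neuroblastomas but not in this line, had 11.29 and 11.26. MYCN was thus under the limit on both arrays, but barely so on array 2, where the limit was 11.27. With the limit at the 90th percentile, 10.05 and 10.03, MYCN was above it on both. The other members under the main limit were SATB1 with 10.43 and 10.75, INSM1, a factor of neuroendocrine cells, with 10.21 and 10.16, and DACH1 with 9.93 and 10.17.

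Other families of developmental transcription factors were read against the 34.8% of all genes above background. Of 6 GATA genes, 2 were above it, 33.3%, the lineage factors GATA2 and GATA3, while GATA6 had 4.08 and 4.79. Of 19 SOX genes, 3 were above background, 15.8%. Without array 1 there were 5, against 37.9% of all genes, and without olfactory receptors in the limit 6, against 51.7%. SOX4, a factor of early neurons, had 16.46 and 16.29, and SOX10, the factor of neural crest and Schwann cells, had 11.63 and 11.68, close to the limit. SOX2, a factor of stem cells, had 5.96 and 5.79. Of 9 PAX genes, 0 were above background, with 9.67 and 9.49 for the brightest probe of PAX3. Of 38 HOX genes, which give cells their position along the body axis, 2 were above background, HOXC4 with 13.52 and 13.74 and HOXD8 with 13.36 and 13.42. The HOX genes had a median of 7.31, against 10.02 over all genes. Of 474 zinc finger genes named ZNF, 119 were above background, 25.1%, led by ZNF428 with 16.37 and 16.33.

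Genes of the neuronal cytoskeleton and growth cone were above background in 22 of 24 cases, 91.7% against 34.8% of all genes. The list median was 15.80. TUBA1A, a tubulin of young neurons, had 18.09 and 18.19. STMN2, which binds tubulin in growing axons, had 18.00 and 18.02 on 1 probe and 17.88 and 17.74 on the other. TUBB2B had 17.43 and 17.75 and the growth cone protein DPYSL2 17.38 and 17.41. TUBB3, the common marker of neurons, had 16.65 and 16.81. Among the neurofilament proteins, NEFL had 15.78 and 15.44 on its brighter probe, NEFM 14.63 and 14.75, and NEFH 13.92 and 13.57 on its brighter probe. INA, their partner in central neurons, had 16.16 and 16.08, whereas PRPH, the intermediate filament of peripheral neurons, had 8.70 and 8.60. STMN4, with 7.11 and 7.13, was the other member under the limit. The dimmest members above background were MAPT with 12.14 and 12.38, DPYSL3 and GAP43, the last with 11.64 and 11.48.

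Of 23 neuronal RNA-binding and adhesion genes, 14 were above background, 60.9% against 34.8% of all genes. RBFOX2, a splicing factor found in many tissues, had 15.54 and 15.51, while its neuronal relatives were under the limit, RBFOX3, the NeuN antigen, with at most 7.45 and 7.37 and RBFOX1 with at most 7.09 and 6.91. The neuronal Hu proteins were above it, ELAVL3 with 14.24 and 14.48 and ELAVL4 with 14.26 and 14.45. NCAM1, the neural cell adhesion molecule, had 15.21 and 15.29 on its brightest probe, but its other probes had 10.75 and 11.05, and 4.08 and 4.17. L1CAM was above background on both of its probes, with 14.82 and 14.71 on the brighter. CHL1, a close relative of L1CAM, had 6.89 and 7.01 on the brightest of its 3 probes.

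Of 28 genes of synaptic vesicles and dense core granules, 15 were above background, 53.6% against 34.8% of all genes. At the 99th percentile of the reference families 5 were above it, and without olfactory receptors 21, against 11.4% and 51.7% of all genes. CHGA, the main granin, had 18.17 and 18.06, and the granins SCG3, CHGB and SCG2 were above background too, with 14.86 and 14.70 for SCG3 and 13.45 and 13.53 for CHGB. SNAP25, a membrane protein of the fusion complex, had 15.06 and 14.76, and SYT11 15.82 and 15.78. The proteases that cut peptide precursors were low, with a mean of 6.19 over both arrays for the brighter probe of PCSK1 and 4.99 and 4.91 for PCSK2, whereas CPE, which trims the cut ends, was above background. The vesicle protein SYP had 10.61 and 10.78, under the limit. SYN3 with 4.39 and 3.50 and SV2B with 5.59 and 4.96 were below the median of the reference families.

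Among 16 neuropeptides, 5 were above background, a share of 31.3% against 34.8% of all genes. GAL, coding for galanin, had 15.84 and 15.71, and NPY, which sympathetic neurons release with noradrenaline, had 15.73 and 15.48. NMU had 14.94 and 15.05, VIP 12.51 and 12.47 and CALCB 12.19 and 12.39. The other 11 had no probe above background, and TAC1, the precursor of substance P, had 2.85 and 4.17 on its brighter probe. The brightest of these 11 was NTS, coding for neurotensin, with 8.98 and 8.77. At the 99th percentile 3 of the list were above background, and without olfactory receptors 5, against 11.4% and 51.7% of all genes.

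Several granule and peptide genes carry the cAMP response element TGACGTCA, which reads the same on both strands, and start regions with it are shown for members on either side of the limit. Capitals mark the element in the 100 bases before the start, on the gene's strand (RefSeq, GRCh38.p14). The stretches are chr14:92923050-92923149 on the plus strand for CHGA, chr7:101165570-101165669 on the minus strand for VGF, chr3:187670395-187670494 on the minus strand for SST and chr5:96433249-96433348 on the minus strand for PCSK1, at the first of its 2 starts in the table.
CHGA: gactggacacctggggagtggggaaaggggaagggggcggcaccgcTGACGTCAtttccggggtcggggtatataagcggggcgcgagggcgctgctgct
VGF: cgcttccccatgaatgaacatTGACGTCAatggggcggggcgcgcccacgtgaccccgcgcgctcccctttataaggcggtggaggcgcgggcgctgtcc
SST: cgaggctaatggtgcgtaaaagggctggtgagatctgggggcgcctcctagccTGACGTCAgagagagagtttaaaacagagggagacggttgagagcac
PCSK1: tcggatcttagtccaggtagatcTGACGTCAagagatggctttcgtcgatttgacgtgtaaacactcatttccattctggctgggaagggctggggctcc
The element was in 4 of the 23 granule and vesicle genes with an entry in the RefSeq table and in 2 of 13 neuropeptide genes, against 1.85% of all 35116 promoters of 300 bases. Genes with it were found on both sides of the limit. CHGA, SYN1 and VGF were above background, with 12.75 and 12.97 for the secreted protein VGF and 13.09 and 13.24 for SYN1. PCSK1, SST with 5.93 and 5.89, and CARTPT with 7.60 and 7.54 were not. A match is a description of letters and not of a bound site.

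**Figure D2:**
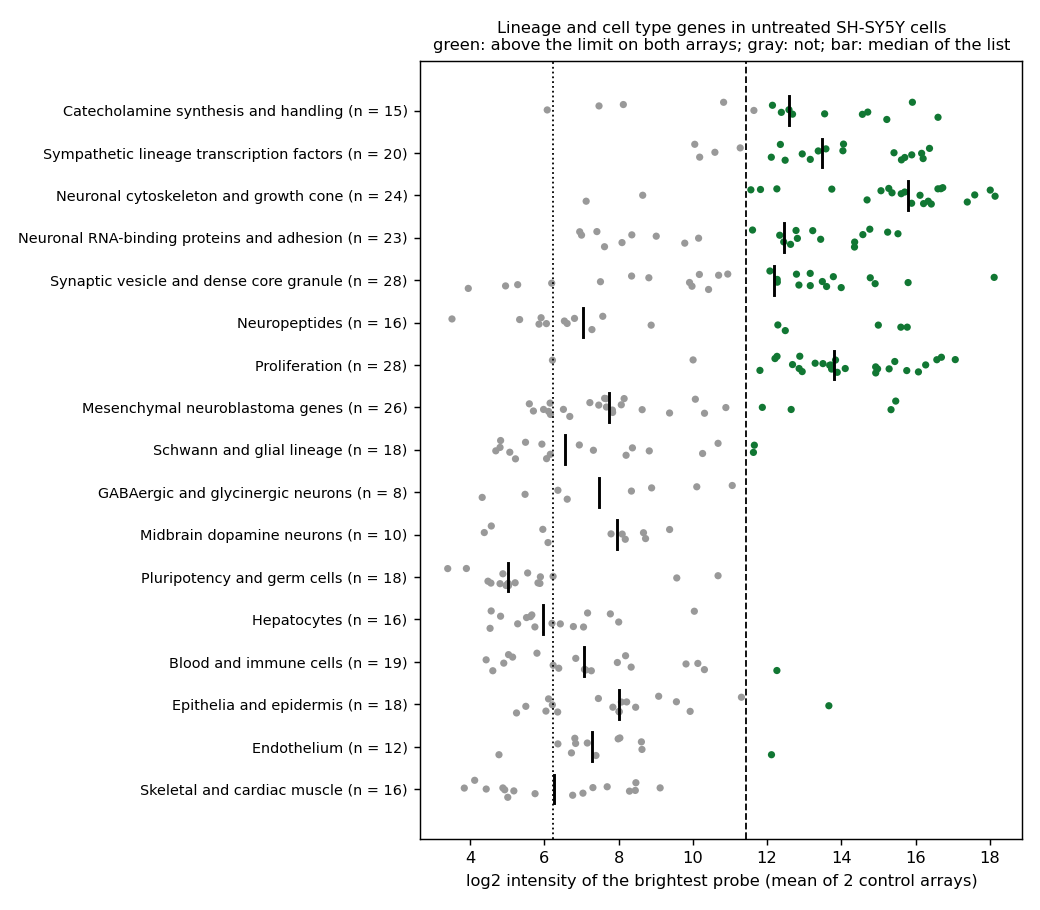
Each point is 1 gene, placed at the log2 intensity of its brightest probe (horizontal axis, mean of 2 control arrays), in rows by gene list, with the number measured. Green points were above the limit on both arrays and gray points were not, bars are list medians, and the lines mark the limit (dashed) and the median of the reference families (dotted). Lists of the sympathetic lineage, the neuronal cytoskeleton and proliferation lie mostly right of the limit, and those of other cell types left of it.

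Markers of other transmitter systems were mostly at background, while 34.8% of all genes were above it. Of 4 cholinergic genes, SLC18A3, the vesicular acetylcholine transporter, was above background with 14.48 and 14.40, while CHAT, which makes acetylcholine, had 6.81 and 6.93 and SLC5A7, which takes up choline, at most 6.63 and 6.58. The transporter was thus above the limit while the enzyme was not. The other gene, ACHE, had at most 10.66 and 10.87. Without olfactory receptors in the limit 2 of the 4 were above it, as were 51.7% of all genes. Of 5 glutamatergic, 8 GABAergic or glycinergic and 10 midbrain dopamine neuron genes, 0 were above background in each list. GAD2, an enzyme of GABA synthesis, had 4.32 and 4.32, and SLC17A6, a vesicular glutamate transporter, 5.68 and 6.02. DLX5, the brightest of the GABAergic or glycinergic list, had 10.97 and 11.15. Without olfactory receptors in the limit 2 of these 8 genes were above it, and 0 of the glutamatergic and midbrain dopamine lists. The dopamine transporter SLC6A3 had at most 8.61 and 8.73, and of the factors of midbrain dopamine neurons NR4A2 had at most 8.78 and 8.67 and PITX3 at most 9.34 and 9.40. Of 5 serotonergic and histaminergic genes, FEV, a factor of serotonin neurons, was above background with 14.24 and 14.15, and TPH2, which makes serotonin in those neurons, had 4.54 and 4.63.

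Among 22 receptors for growth and neurotrophic factors, 8 were above background, 36.4% against 34.8% of all genes. Without olfactory receptors in the limit 15 were above it, as were 51.7% of all genes. ALK, the receptor kinase mutated in familial neuroblastoma, had 15.01 and 14.65. PDGFRB had 14.59 and 14.44 and PDGFRA 14.28 and 14.33, and IGF1R, the receptor of IGF1, had 13.53 and 13.66 on its brighter probe. RET, a receptor for factors of the GDNF family, had 12.92 and 12.87 on its brighter probe, and of its co-receptors GFRA3 had 12.40 and 12.39 while GFRA1 had 5.14 and 5.26. NTRK2, the receptor of BDNF, had 9.88 and 9.92 on the brightest of 5 probes, and NTRK3 7.68 and 7.61 on the brighter of 2. EGFR, the receptor of epidermal growth factor, had at most 8.16 and 7.95.

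Of 21 acetylcholine receptor subunits, 4 were above background, all of them nicotinic. CHRNA3, a subunit of ganglionic receptors, had 15.12 and 15.09 on 1 probe and 14.07 and 14.22 on the other, and CHRNB2 had 14.64 and 14.49 on its brighter probe. The others were CHRNB1 with 12.25 and 12.06 and CHRNA5 with 11.66 and 11.73. CHRNA7 had 11.17 and 11.17, and CHRM3, a muscarinic receptor, had at most 9.36 and 9.47. Of 13 receptors for catecholamines, 1 was above background, 7.69% against 34.8% of all genes. It was DRD2 with 12.72 and 12.65, and DRD1 had 5.39 and 5.46. Of 17 ionotropic glutamate receptor subunits, 4 were above background, 23.5% against 34.8% of all genes. They were led by GRIK5 with 12.95 and 12.89 and GRIN1 with 12.51 and 12.40. GRIA3 and GRIA4 lay near the limit. With the limit taken at the 90th percentile 8 of the 17 subunits were above it, as were 49.1% of all genes.

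Proliferation genes were above background in 26 of 28 cases, 92.9% against 34.8% of all genes, with a median of 13.79. CCND1, the cyclin that starts the cell cycle, had 17.12 and 17.02, and PCNA, the clamp of DNA polymerases, 16.72 and 16.67. TOP2A had 15.72 and 15.80 and MKI67, the Ki-67 antigen, 13.68 and 14.10. CCND2, with 5.70 and 6.73, and CCNE2, with at most 10.19 and 9.82, were the exceptions. Of 14 genes of the p53 and MYC axis, 8 were above background, 57.1% against 34.8% of all genes. ODC1, a target of MYC in polyamine synthesis, was among them with 17.14 and 16.80. Of the targets of p53, CDKN1A had at most 11.57 and 11.54, under the limit on array 1 and above it on array 2, and MDM2 had at most 9.70 and 9.55, under it on both.

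Some fetal and tumor-associated genes were among the brightest. Of 16 imprinted and oncofetal genes, 8 were above background, 50% against 34.8% of all genes. DLK1, a secreted antagonist of adipogenesis made in chromaffin cells, had 17.36 and 17.36. H19, a maternally expressed long RNA, had 17.25 and 17.35 on 1 probe and 15.97 and 15.93 on the other. PEG10 had 16.37 and 16.64 on its brighter probe and CDKN1C, a cell cycle inhibitor, 15.42 and 15.63. IGF2BP1 with 6.48 and 6.61 and NDN with 6.61 and 6.73 were near the median of the reference families. Of 33 cancer testis antigens, 4 were above background, 12.1% against 34.8% of all genes. PRAME had 17.26 and 17.26, 16.20 and 16.20, and 12.15 and 12.16 on its 3 probes, and PAGE1 had 13.08 and 12.95. The others were CTAGE1 and XAGE2, and the median of the list was 6.40.

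Of 26 genes of the mesenchymal neuroblastoma state, 4 were above background, a share of 15.4% against 34.8% of all genes. They were TWIST1 with 15.45 and 15.48, the intermediate filament VIM with 14.91 and 15.77, TWIST2 with 12.52 and 12.78, and FN1, which codes for fibronectin, with a mean of 11.87 over both arrays on its brighter probe. PRRX1 and FOSL1, factors of that state, had 6.37 and 5.95 on the brighter probe of PRRX1 and 6.02 and 6.28 for FOSL1. YAP1 had 7.84 and 7.82 and CD44 at most 6.83 and 6.54. Without olfactory receptors in the limit 7 of the 26 genes were above it, as were 51.7% of all genes. Of 18 Schwann and glial genes, 2 were above background, 11.1% against 34.8% of all genes. With the limit of the olfactory receptors alone there were 0, against 29.2% of all genes. Without olfactory receptors in the limit there were 4, against 51.7%. The 2 at the main limit were SOX10 with 11.63 and 11.68 and SLC1A2 with 11.71 and 11.55 on its brighter probe. PMP22 had 10.63 and 10.72 and NGFR 10.29 and 10.23, under the limit. S100B had at most 8.86 and 8.79 and GFAP at most 5.59 and 4.84.

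Markers of other cell types were at background with few exceptions. The 7 lists were of pluripotent and germ cells, hepatocytes, blood and immune cells, epithelia, endothelium, muscle and photoreceptors. Of their 110 genes, 4 were above background, 3.64% against 34.8% of all genes. Another 48 lay below the median of the reference families, where 19.9% of all genes lay. In the lists of pluripotent and germ cells (18 genes), hepatocytes (16) and muscle (16), 0 were above background. ALB had 4.96 and 4.17, PTPRC, the CD45 antigen, at most 4.69 and 4.17, CDH1, the cadherin of epithelia, 6.19 and 5.89, and CKM, the creatine kinase of muscle, 3.36 and 4.32. Closer to the limit, but not above background, were KRT14 with 11.21 and 11.41 and RCVRN with 11.24 and 10.99. LIN28B with at most 10.74 and 10.61 and APOC3 with 10.01 and 10.07 were the brightest of the pluripotent and germ cell list and the hepatocyte list. The 4 exceptions were 1 gene each of 19 in blood, 18 in epithelia, 12 in endothelium and 11 in photoreceptors, and 2 of the 18 epithelial genes were above background without array 1. The 4 genes were CD3D with 12.18 and 12.35 on 1 probe and 2.58 and 1.66 on the other, KRT10 with 13.66 and 13.66, EGFL7 with 12.12 and 12.11, and PDE6B with 12.08 and 12.23. Without olfactory receptors in the limit 4 genes of blood, 3 of epithelia, 1 of endothelium and 3 of photoreceptors were above it. In the lists of pluripotent and germ cells and of hepatocytes 1 gene each was, and in muscle 0. Of all genes, 51.7% were above that limit. Of 53 keratins 2 were above background at the main limit, KRT10 and KRT38, and of 36 interleukins 1 was, IL7 with 11.90 and 11.85. These were shares of 3.77% and 2.78%, against 34.8% of all genes.

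The line serves as a model in studies of neurodegeneration. Of 19 measured genes of these diseases 12 were above background, 63.2% against 34.8% of all genes. VPS35, a subunit of the retromer, had 16.64 and 16.67 on its brighter probe, SOD1 had 15.83 and 15.95, and PARK7, a redox chaperone, had 15.96 and 15.80 on its brighter probe. APP, the amyloid precursor, had 12.49 and 12.93. LRRK2, with a mean of 6.08 over both arrays on its brighter probe, was below the median of the reference families, and PINK1, with 11.12 and 11.15, was under the limit on both arrays.

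Of the 5 genes chosen for qPCR, the reference gene HPRT1 was above background. The median of these genes was 11.48, against 10.02 over all genes. HPRT1, an enzyme of purine salvage, had 14.84 and 14.46. GGT5, of the gamma-glutamyl transferase family, had 11.54 and 11.63, under the limit on array 1 and above it on array 2. GRIA1, an AMPA receptor subunit, had 11.46 and 11.50 on 1 probe, and its other probes had 6.34 and 6.35, and 5.03 and 5.24. S100A3 had 10.44 and 10.43, and 4.32 and 4.96 on the other probe. GNRHR, the receptor of gonadotropin-releasing hormone, had 10.01 and 9.99, 6.02 and 5.89, and 4.39 and 3.70 on its 3 probes. Apart from HPRT1 none of these genes was above background on both arrays, and GGT5 and GRIA1 were above the limit on array 2. Without olfactory receptors in the limit all 5 were above it, as were 51.7% of all genes. Of 14 carriers of dicarboxylates and monocarboxylates, 3 were above background, 21.4% against 34.8% of all genes. They were the mitochondrial carriers SLC25A11 with 13.65 and 13.81 and SLC25A10 with 13.42 and 13.38, and SLC16A1 with 13.43 and 13.48 on its brighter probe. The sodium-dependent dicarboxylate carriers SLC13A3 and SLC13A5 had 8.25 and 8.48, and 1.40 and 4.17.

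Genes that every cell needs showed how often a transcript can be missed. Of 70 cytosolic ribosomal proteins 55 were above background, of 75 mitochondrial ones 64, of 79 respiratory chain subunits 63 and of 39 proteasome subunits 31. Together 213 of 263 or 81.0% were above it, against 34.8% of all genes. Some members under the limit are known from other tissues, such as RPL3L and COX6A2 of muscle and the immunoproteasome subunits PSMB8, PSMB9 and PSMB10. Others belong to every ribosome. RPL3 had 5.03 and 4.44, RPS7 5.20 and 4.54, RPL24 5.33 and 5.10, and RPL7A 5.65 and 5.68, all below the median of the reference families and each with 1 probe. The respiratory chain subunit NDUFS1 had 4.84 and 4.89. Of the 50 members not above background, 45 had 1 probe, but only 97 of all 263 members had at least 2. Genes with more probes also had more chances to be called. Of 12 reference genes of qPCR, 11 were above background, with 17.86 and 18.32 for GAPDH and 14.79 and 14.79 for ACTB, and RPLP0, a protein of the ribosomal stalk, had 7.53 and 7.51 on its 1 probe. A probe at background thus does not show that its transcript is absent.

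Promoters of genes above background were set against those of the reference families for the dinucleotide CG. In the 84.7% of genes above background with an entry in the RefSeq table, the 300 bases around the start held a median of 27 CG, and 4.35% of the promoters had 5 or fewer. Among the reference families, with entries for 81.6%, the median was 1 and 94.6% had 5 or fewer. The sequence TATAAA, from 45 to 15 bases before the start, was in 1.25% of the promoters of genes above background and in 9.64% of those of the reference families. Entries covered 79.9% of all genes and 74.4% of those below the median of the reference families. Both were under the minimum of 80% set for this count, so that genes above background were not compared with genes in general. The reference families also set the limit and were picked for their roles outside such cells. The contrast therefore describes these families and shows no trait particular to genes above background.

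Both control arrays gave nearly the same values. Over the 7415 probes above background, the median absolute difference was 0.11 on the log2 scale and the 95th percentile 0.36, and 8 probes, 0.108%, were over 2-fold apart. Over the 17243 other probes the median was 0.16, the 95th percentile 0.93, and 749 probes, 4.34%, were over 2-fold apart. In the dimmest of 5 equal groups of probes the 95th percentile reached 1.58, against 0.59, 0.43, 0.37 and 0.36 in the following groups. Pearson's r across the 24658 probes, which are not independent replicates, was 0.990. The bright probes that parted most were those of RFLNB with 12.20 and 18.12, SIX2 with 12.16 and 13.88, GAB1 with 11.74 and 13.35, YBX1 with 17.68 and 16.28, and BHLHE22 with 12.09 and 13.41. For RFLNB the deposited intensities were 4785 and 281927, while the other probe of the gene had log2 values of 13.99 and 13.88. The limit was lower on array 2, and 760 probes were above it on that array only, against 20 on array 1 only.

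**Figure D3:**
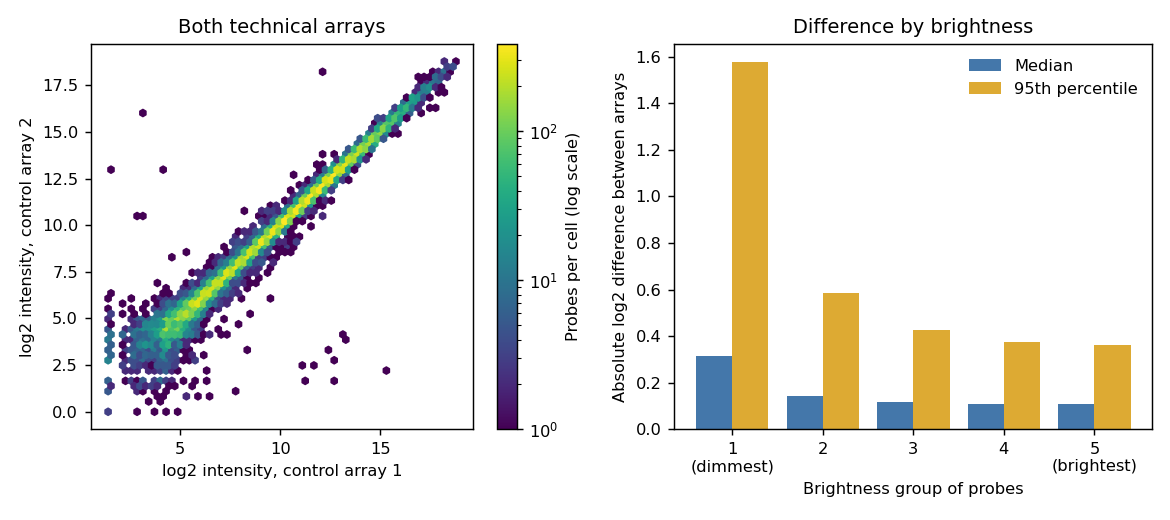
Left, log2 intensities of the 24658 probes with 1 gene symbol on control array 1 (horizontal axis) and array 2 (vertical axis), with the number of probes per cell in color on a log scale. Right, the absolute log2 difference between both arrays (vertical axis) in 5 equal groups of probes from dim to bright, as median and 95th percentile. The 95th percentile was 1.58 in the dimmest group and 0.36 in the brightest.

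Probes of 1 gene differed far more than arrays of 1 probe. Among the 5450 genes with at least 2 probes, the range of the probe means had a median of 2.00 on the log2 scale, with quartiles of 0.93 and 3.52. It was under 1 for 1464 genes, 26.9%, and over 4 for 1080, 19.8%. The standard deviation within genes was 2.09 against 3.22 over all 11853 probes of these genes, so that 42.3% of the variance lay within genes. The median standard deviation between both arrays of a probe was 0.096. Every probe was above background for 858 genes, no probe for 2989, and for 1603 genes, 29.4%, the probes lay on both sides of the limit. Where every probe was above background, the median range was 1.01, but selecting on the probe values themselves narrows the range in advance.

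Probes of lineage genes also differed. In the 6 neuronal and noradrenergic lists, 82 of 126 genes were above background, 65.1% against 34.8% of all genes. Of the 36 with at least 2 probes 11 had every probe above it, 14 had none and 11 had probes on both sides. Their median range was 1.38, against 2.00 over all genes with at least 2 probes. A low range was not particular to them. It was 1.33 in the 7 lists of other cell types and 2.33 in the ribosomal, respiratory and proteasome lists. STMN2, GATA3, TFAP2B, SLC6A2 and CHRNA3 had every probe above background, while DDC, NCAM1 and NEFH had probes on both sides. The 10 genes whose probes parted most were ATP5MC2, ATP5PF, HMGB2, HIPK3, SRSF3, KLHL42, RPL38, ELOC, PRLR and COX6A1. ATP5MC2, a subunit of ATP synthase, had 16.21 and 16.12 on 1 probe and 2.58 and 1.66 on the other. HMGB2, a chromatin protein of dividing cells, had 16.88 and 16.76 on 1 probe and 3.70 and 3.06 on the other. RPL38 had 18.33 and 18.25 on 1 probe and 6.74 and 5.68 on the other. In each of the 10 genes, 1 probe was above background and the dimmest lay below the median of the reference families.

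**Figure D4:**
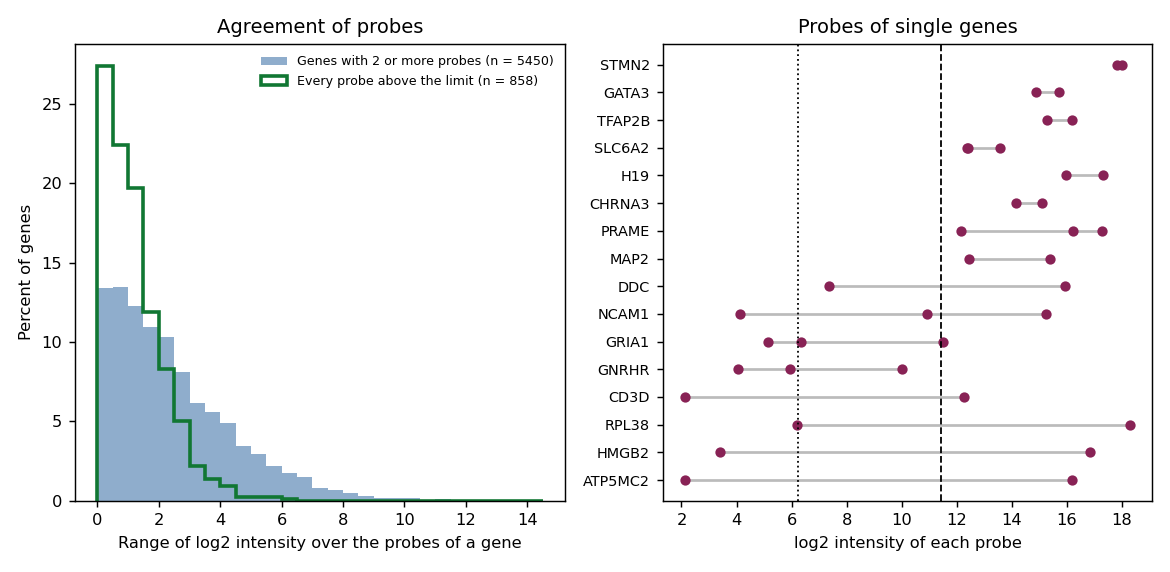
Left, range of log2 intensity over the probes of a gene (horizontal axis) as percent of genes (vertical axis), for the 5450 genes with at least 2 probes (filled) and the 858 with every probe above the limit (line). Right, each probe of selected genes as a point at its log2 intensity (mean of 2 control arrays), with the limit (dashed) and the median of the reference families (dotted). STMN2 and GATA3 have their probes close together, and ATP5MC2 spans 14.04.

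The share of genes above background was counted by chromosome. Without the reference families and the ZNF genes, it lay between 28.9% on chromosome 4 (198 of 684 genes) and 41.7% on chromosome 7 (326 of 781). Chromosome 16 followed with 40.4% (291 of 720). Genes of a chromosome are not independent, and the order was not tested.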

How the data were processed

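RNA of untreated SH-SY5Y cells was amplified from 1 μg, labelled with Cy5 and hybridised to 2 arrays. Per the labels and methods, the authors extracted the images in GenePix, dropped spots with negative flags and normalized by median scaling in Rosetta Resolver. Their deposited values are linear intensity, and no source used here describes a background subtraction. Medians were 484 and 479, and 89 and 5 values under 1 were set to 1. After log2, both control arrays were quantile normalized with limma 3.58.1 in R 4.3.3, without the treated arrays, and described with Python 3.11.15 (pandas 2.3.3, matplotlib 3.10.9). The number of arrays limits the precision. No test between samples was run, since 2 technical arrays of 1 sample hold no contrast. The counting of probes above a limit was checked on simulated data, with absent probes drawn from the reference families. That check covers the counting and cannot show whether these families are a valid background. Symbols of the platform annotation were updated through RefSeq (GRCh38.p14): 22404 probes had a current symbol, 2177 were updated and 77 kept theirs. Probes with several symbols (1002) or none (6081) were not named.

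The rule for named genes took those of qPCR, the 20 brightest, and up to 4 brightest and 4 dimmest of each of 48 lists. It also took the 10 genes with the largest range of probes and the 5 probes with the largest array difference. The 48 lists include the 5 reference families. Not every gene of the rule is given in the text. Further members were named after their values were seen, and members, lists and limit were chosen with earlier results of these data known. Alternatives were other normalizations, limits, floors and probe rules and each array alone. A limit without olfactory receptors was added after the data were seen.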

Additional observations from a re-analysis of the deposited data

How the results depend on the processing

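The counts depended on the limit of detection. At the 99th percentile of the reference families 2322 probes and 2087 genes were above background, at a fixed intensity of 50 there were 20513 and 15497, and without olfactory receptors, a limit chosen after seeing the data, 11671 probes and 9432 genes. The noradrenergic markers above background numbered 4 at the 90th percentile, at the intensity of 50 and without olfactory receptors, TH being the one gained. No scaling, quantile normalization over 8 arrays, cyclic loess and an offset of 50 each gave the same 6349 genes. No scaling, quantile normalization and the offset keep the order of probes within an array, and the limit moves with them, so their identical calls follow from the construction and say nothing of stability. Leaving out either array gave 7435 to 8175 probes, 6366 to 6927 genes, 3 to 4 markers and a median probe range of 1.97 to 2.00. The median array difference was 0.127 without scaling and 0.12 at the intensity of 50. The median range of probes was 1.77 with quantile normalization over 8 arrays and 1.62 with the offset. It was 1.01 where every probe was above background, a selection that itself narrows the range. By the mean over its probes 5302 genes were above background, and by every probe 4746. No paired analysis was possible because the report covers 1 group. Culture to culture differences are not covered, since both arrays shared 1 RNA sample.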

Other observations

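Olfactory receptor genes with a bright probe were the main source of the high limit. OR4D6 had 17.14 and 17.25 on array 1 and array 2, OR2T1 15.72 and 15.96, and OR1L1 14.74 and 14.80, so that the brightest of them stood among the 100 brightest genes. Each was measured by 1 probe, and their values were as close between arrays as those of other bright probes. Keratin-associated proteins, bitter taste receptors and late cornified envelope proteins had 0 probes above background, with maxima of 10.44, 11.26 and 11.32.

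Of the 6081 probes with no gene symbol in the annotation used here, 730 were above background, and 24 were brighter than the 99th percentile of the probes with 1 symbol, with a highest log2 intensity of 18.67.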
